A study of Gallus gallus with 2 samples.

Results

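The Krüppel-like factor (KLF) family was followed in DT40, a B cell line established from the bursa of Fabricius of a chicken, in PTIP deficient cells (PTIP-/-/-) and in wild-type cells. PTIP is the product of PAXIP1, a protein of the DNA damage response and of a histone H3K4 methyltransferase complex. Each genotype is labelled as a clone and was represented by 1 culture and 1 Affymetrix chicken genome array, so 2 arrays in all, and both cultures were kept under the same conditions at the same temperature. The members were all probe sets whose gene symbol in the platform annotation was KLF2, KLF3, KLF4, KLF5, KLF6, KLF7, KLF9, KLF11, KLF13 or KLF15. These were 19 probe sets of 38535, for 10 genes of 13009. With 1 array per genotype there is no replicate and no test between genotypes: each difference below is a difference between 2 arrays, and a difference between clones or cultures cannot be told apart from one of genotype.

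KLF proteins bind GC-rich and CACCC sequences through a tandem array of zinc fingers at the carboxyl terminus, which they share with the SP factors, and differ in the amino-terminal part that recruits coactivators or corepressors. KLF3, KLF8 and KLF12 recruit the corepressor CtBP. KLF9, KLF10, KLF11 and KLF13 recruit the corepressor SIN3A, and KLF2, KLF4, KLF5, KLF6 and KLF7 act largely as activators with acetyltransferase partners. In mouse lymphocytes KLF2 and KLF4 are known for holding resting cells out of the cell cycle, and KLF2 also for controlling their migration.

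The values are linear signal intensities. A signal was called measured at or above a floor of 31.0, percentile 40 of all values, and a log2 ratio (PTIP deficient minus wild-type) was taken only where both arrays were measured. The 57 probe sets for reporter sequences reached 131.5, leaving out the brightest one, which reached 2675, above every KLF signal. The highest reporter signal and the reporter level below mean 131.5. Where 1 signal of a pair was under that level, the fold difference is given as a bound against it. A difference of 2-fold served as the bar. Probe sets differ in their sensitivity, so signals are compared between arrays and not between genes or probe sets. Where a gene had several measured probe sets, the difference in log2 ratio between its 2 brightest had an SD of 0.50 (4284 genes), a figure for probe error only. The disrupted gene PAXIP1 read 593 in PTIP deficient cells and 1045 in wild-type cells (log2 ratio -0.82), and its other 2 probe sets did not reach the floor in either array. Where these probe sets lie in relation to the disruption is not stated in the labels, so they check nothing about it. The transcripts spiked into each hybridisation were higher in the PTIP deficient array, with a median log2 ratio of 0.30 over 27 probe sets, so a shift of that size cannot be told apart from one of the array. The 36 probe sets for labelling controls had a smaller median log2 ratio, 0.08. The spiked transcripts below mean those of the hybridisation only.

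KLF13 and KLF6 were higher in PTIP deficient cells, and the other measured family members were within 2-fold. Of the 10 genes, 6 were measured in both arrays, and of these 6, 2 passed the bar upward and 0 downward. Over all 9165 genes with a ratio, 5.03% passed it upward and 4.46% downward. KLF15 reached the floor in PTIP deficient cells only, and KLF3, KLF4 and KLF7 in neither array. The median log2 ratio of the 6 measured genes was 0.41, against 0.03 for all measured genes, and without KLF13 it was 0.15 over 5 genes. Of the 19 probe sets, 11 were measured in both arrays, of which 6 passed the bar upward and 0 downward. The shares were 4.89% upward and 4.69% downward over all probe sets with a ratio. All 6 belonged to KLF13 and KLF6, and probe sets of 1 gene are not independent.

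**Figure D1:**
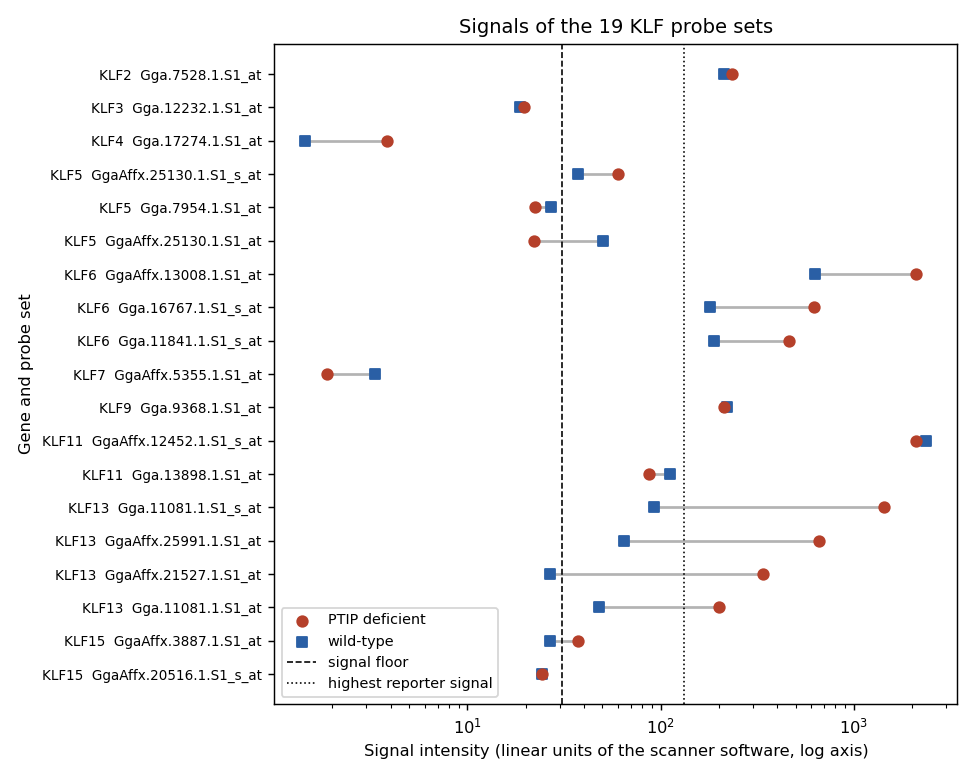
Signal intensity (log axis) of the 19 KLF probe sets in the PTIP deficient array (circles) and the wild-type array (squares). Lines mark the floor of 31.0 (dashed) and the highest reporter signal of 131.5, leaving out the brightest reporter (dotted). The 4 KLF13 and 3 KLF6 probe sets are displaced to the right in PTIP deficient cells, and the single KLF2 and KLF9 probe sets lie at 235 and 213 in PTIP deficient cells, next to their wild-type signals.

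KLF13 (Entrez gene 427493, chromosome 10 of the GRCg7b annotation) is a member of the SIN3A-binding group and is known in human T cells as an activator of the chemokine gene CCL5. Its brightest probe set read 1428 in PTIP deficient cells and 91.9 in wild-type cells, at least 10.9-fold higher, with a log2 ratio of 3.96. A second probe set read 664 in PTIP deficient and 64.8 in wild-type cells, a log2 ratio of 3.36 and at least 5.05-fold. Another read 202 in PTIP deficient and 48.1 in wild-type cells, a log2 ratio of 2.07 and at least 1.53-fold. The last read 340 in PTIP deficient cells and was under the floor in wild-type cells, at 26.8, at least 2.59-fold higher. All 4 probe sets therefore lay above the highest reporter signal in the PTIP deficient array and below it in the wild-type array. The direction was the same in each, and the size was not settled, because no wild-type signal of KLF13 exceeded that of reporter sequences. The brightest carries the suffix _s_at, given to probe sets that may detect more than 1 transcript; the other 3 do not.

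KLF13 ranked 8 among the 9165 measured genes in descending order of log2 ratio. Next above it stood the plastin LCP1 (4.20), PROM1 (4.57) and the galectin LGALS1B (4.64), and next below it the plastin PLS3 (3.79), TSPAN12 (3.78) and ID3 (3.71), an inhibitor of E-protein transcription factors. The wild-type signals of these 6 genes, like that of KLF13, were all under 131.5, so their order is not settled. The likeness is that of 1 ratio between 2 arrays.

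KLF6 (Entrez gene 420463, chromosome 2) is an activator that is induced in injured and stressed cells in mammals. Its 3 probe sets read 2109, 624 and 462 in PTIP deficient cells, against 631, 180 and 189 in wild-type cells. All 6 signals were above the highest reporter signal, so these ratios are measured on both sides. The brightest gave a 3.34-fold higher signal (log2 ratio 1.74), and the others had log2 ratios of 1.79 and 1.29. These others carry the suffix _s_at, so they may detect more than 1 transcript, and the brightest does not carry it. The mean over the 3 probe sets was 1.61 ± 0.27 (SD over probe sets of the same 2 arrays). KLF6 ranked 102 in descending order of log2 ratio, between NDFIP1 (1.75) and the antiproliferative gene BTG2 (1.74), both named after their values were seen. Above the highest reporter signal in both arrays, 3.05% of 6658 genes were at least 2-fold higher; of the 4 KLF genes at that level (KLF2, KLF6, KLF9 and KLF11), KLF6 was the only one.

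**Figure D2:**
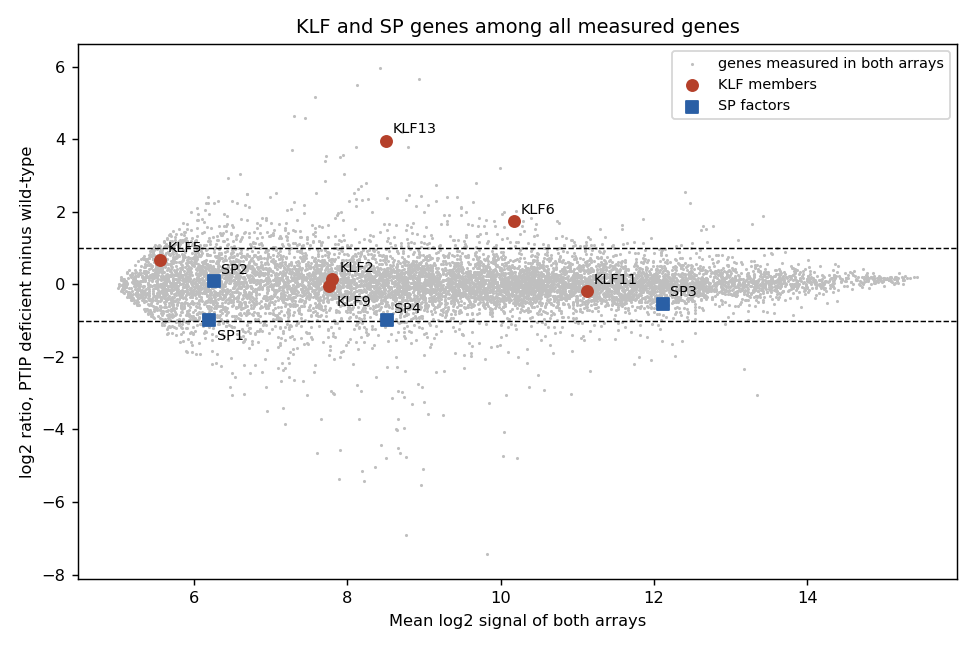
The log2 ratio (PTIP deficient minus wild-type) of each of the 9165 genes measured in both arrays against its mean log2 signal, with the KLF members (circles) and SP factors (squares) named and the 2-fold bars dashed. KLF13 (3.96) and KLF6 (1.74) lie above the upper bar, and the other 4 measured KLF genes and the 4 SP genes lie between the bars.

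Of the other activators, only KLF2 had signals above the reporter level, and it differed little between the arrays. KLF2 (Entrez gene 420148, chromosome 28), the quiescence and migration factor, read 235 in PTIP deficient cells and 212 in wild-type cells, a log2 ratio of 0.15. That ratio was -0.15 when the spiked transcripts were set equal between arrays, so the direction for KLF2 is not settled. KLF5 (Entrez gene 418818, chromosome 1), best known for driving proliferation of epithelial cells, was measured in both arrays by 1 of its 3 probe sets, at 59.8 in PTIP deficient and 37.3 in wild-type cells (log2 ratio 0.68). Its second probe set had the opposite sign, at 21.99 in PTIP deficient and 50.3 in wild-type cells, and its last was under the floor in both, at 22.4 in PTIP deficient and 27.1 in wild-type cells. All 6 KLF5 signals were under that of reporter sequences, and no difference was detectable for this gene. KLF4 (Entrez gene 770254, chromosome Z), one of the pluripotency factors, read 3.85 in PTIP deficient and 1.45 in wild-type cells. KLF7 (Entrez gene 429011, chromosome 7), known from neurons and fat cells in mammals, read 1.87 in PTIP deficient and 3.30 in wild-type cells. No ratio is given for KLF4 and KLF7, which were under the floor in both arrays. KLF15 (Entrez gene 427588, chromosome 12), a metabolic regulator of mammalian liver and muscle, read 37.4 and 24.4 in PTIP deficient cells with its 2 probe sets, against 26.7 and 24.2 in wild-type cells.

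Within the SIN3A-binding group, KLF13 alone of the genes measured in both arrays was past 2-fold. KLF9 (Entrez gene 770238, chromosome Z), which glucocorticoid and thyroid hormones induce in mammals, had a signal of 213 in PTIP deficient and 221 in wild-type cells (log2 ratio -0.05). KLF11 (Entrez gene 421934, chromosome 3), a TGF-beta-inducible repressor, read 2089 in PTIP deficient and 2377 in wild-type cells with its brightest probe set (log2 ratio -0.19). Its dimmer probe set read 87.4 in PTIP deficient and 112 in wild-type cells (log2 ratio -0.36). KLF10, which is no member of the list but the closest relative of KLF11, read 716 in PTIP deficient and 730 in wild-type cells (log2 ratio -0.03), and its second probe set had a log2 ratio of 0.22. The highest of these ratios was 0.22 and the lowest -0.36. The SD of 0.50 above is that of a difference between 2 probe sets. For 1 probe set it corresponds to 0.36, which is the size of the lowest ratio. That SD holds probe error only and no variation between arrays or cultures, so it cannot judge that ratio. The lowest ratio is that of the dimmer KLF11 probe set, with both signals under the reporter level. KLF13 stood at least 3.44 above 0 on the log2 scale against the highest reporter signal. Of the CtBP-binding group, KLF3 (Entrez gene 429811, chromosome 4), a repressor that shapes B cell development in mice, read 19.6 in PTIP deficient and 18.6 in wild-type cells. KLF12, also outside the list, read 17.8 in PTIP deficient and 2.44 in wild-type cells. Neither reached the floor in either array. The remaining 6 KLF genes looked for, KLF1, KLF8, KLF14, KLF16, KLF17 and KLF18, matched no probe set by symbol and were not analysed here.

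The SP factors, which share the zinc fingers and bind similar sequences, were within 2-fold where measured. Of 5 on the array, 4 were measured in both and 0 were at least 2-fold apart, as were most genes of the array (8295 of 9165 within 2-fold). Of the 4 SP genes, 3 had a log2 ratio below 0, with a median of -0.76. Under the alternative settings that median lay between -1.05 and -0.30. SP4 had a signal of 261 in PTIP deficient and 515 in wild-type cells (log2 ratio -0.98), just inside the bar, and its second probe set gave -0.40. The first of these was past 2-fold under 2 of 4 other scalings, and so was SP1. SP3 read 3695 in PTIP deficient and 5342 in wild-type cells with its brightest probe set, and its 3 measured probe sets had log2 ratios from -0.53 to -0.45. With its 2 unmeasured probe sets averaged in, SP3 was at 0.41. SP1 (52.3 in PTIP deficient, 103 in wild-type cells) and SP2 (78.6 in PTIP deficient, 74.3 in wild-type cells) were under the reporter level in both arrays. SP8 was under the floor in both. The other 4 SP genes looked for matched no probe set.

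Among 14 corepressors and coactivators of KLF proteins on the array, 12 were measured in both, and 2 passed the bar upward and 0 downward, against 5.03% and 4.46% of all genes, with a median log2 ratio of -0.13. CTBP2, a CtBP corepressor, had a signal of 1881 in PTIP deficient and 41.5 in wild-type cells, at least 14.3-fold higher by its only probe set. Its paralogue CTBP1 read 5142 in PTIP deficient and 5477 in wild-type cells (log2 ratio -0.09). FHL3, a LIM-domain protein that binds KLF3 in mammals, was 2.10-fold higher, at 3441 in PTIP deficient and 1636 in wild-type cells. With the spiked transcripts set equal its log2 ratio was 0.78, under 2-fold. SAP30, a subunit of the SIN3 complex, read 2477 in PTIP deficient and 4314 in wild-type cells (log2 ratio -0.80). With the spiked transcripts set equal it was at -1.10, past 2-fold downward, so both counts depend on the scaling. The corepressor NCOR1 had a log2 ratio of -0.47 with its brightest probe set. Its 5 measured probe sets ranged from -0.47 to 0.76, with a mean of -0.01. The acetyltransferase gene KAT2B was measured in PTIP deficient cells only. Its 3 probe sets read 163, 153 and 202 there, against 24.4, 12.8 and 4.39 in wild-type cells, and they were at least 1.24-fold, 1.16-fold and 1.53-fold higher against the reporter level. In the other direction CREBBP, also an acetyltransferase gene, was measured in wild-type cells only, at 6.92 in PTIP deficient and 62.4 in wild-type cells, both under the reporter level. CTBP1, KAT2B and CREBBP were chosen after their values were seen.

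All 8 ubiquitin ligases on the array that are reported to turn over KLF proteins were measured in both and were within 2-fold, 4 above and 4 below 0, with a median of 0.09. Most genes were within 2-fold, 8295 of 9165, so this count is near that of all genes. WWP1, a ligase for KLF2 and KLF5 in mammals, had log2 ratios of 0.51 and 1.20 with its 2 probe sets, and its relative WWP2 had 0.61. BTRC had a log2 ratio of -0.44 and SMURF1 of -0.37 with its brightest probe set. With all 3 of its probe sets averaged, SMURF1 was at 0.007, so its direction is not settled.

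Of the genes upstream of the KLF family, 17 were on the array, 15 were measured in both, and 4 passed the bar upward and 2 downward, against 5.03% and 4.46% of all genes. The median log2 ratio was 0.26, and -0.04 with the spiked transcripts set equal. TGFBR1, the type I TGF-beta receptor, was 3.19-fold lower, at 894 in PTIP deficient and 2851 in wild-type cells. FOXO1, the forkhead factor that activates KLF2 in mouse lymphocytes, was 2.05-fold lower, at 499 in PTIP deficient and 1020 in wild-type cells. FOXO3, a related forkhead factor, read 244 in PTIP deficient and 43.9 in wild-type cells (log2 ratio 2.47) and was at least 1.85-fold higher against the reporter level. Of its 3 probe sets, 1 was measured in both arrays, and with all of them averaged the log2 ratio was 1.47. SMAD3, a transducer of the same receptor, was at least 1.65-fold higher, at 217 in PTIP deficient and 109 in wild-type cells. EGR1 (98.6 in PTIP deficient, 43.2 in wild-type cells) and the thyroid hormone receptor gene THRA (90.7 in PTIP deficient, 39.7 in wild-type cells) were under the reporter level in both arrays. With the spiked transcripts set equal, EGR1 and THRA each had a log2 ratio of 0.89, under 2-fold. That scaling lowers every ratio, so SMAD3 falls under the bar there too, while FOXO3 was at 2.18. The upward count therefore depends on the scaling. FOXO1 and SMAD3 were named after their values were seen, to complete the 6 genes past the bar.

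Of 20 genes on the array reported as KLF targets, mostly in mammals, 18 were measured in both, and 1 passed the bar upward and 0 downward, with a median of 0.10. Those shares are near the 5.03% upward and 4.46% downward of all genes. That 1 was the collagen gene COL1A1, at 206 in PTIP deficient and 65.7 in wild-type cells, at least 1.56-fold higher. The cyclin-dependent kinase inhibitor CDKN1B had log2 ratios of 0.59 and 0.84 with its 2 probe sets. The survival gene BCL2 had 0.69, 0.38 and 0.28 with its 3 probe sets. The survival gene BCL2L1 had -0.75, -0.03 and -1.19, so its size is not settled. With the spiked transcripts set equal its brightest probe set was at -1.05, past 2-fold downward. S1PR1, the migration receptor under KLF2 in mouse T cells, was measured in wild-type cells only, at 30.5 in PTIP deficient and 89.6 in wild-type cells. S1PR1 was chosen after its values were seen, and both its signals were under the reporter level. CCL5, the target of KLF13, matched no probe set by symbol.

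**Figure D3:**
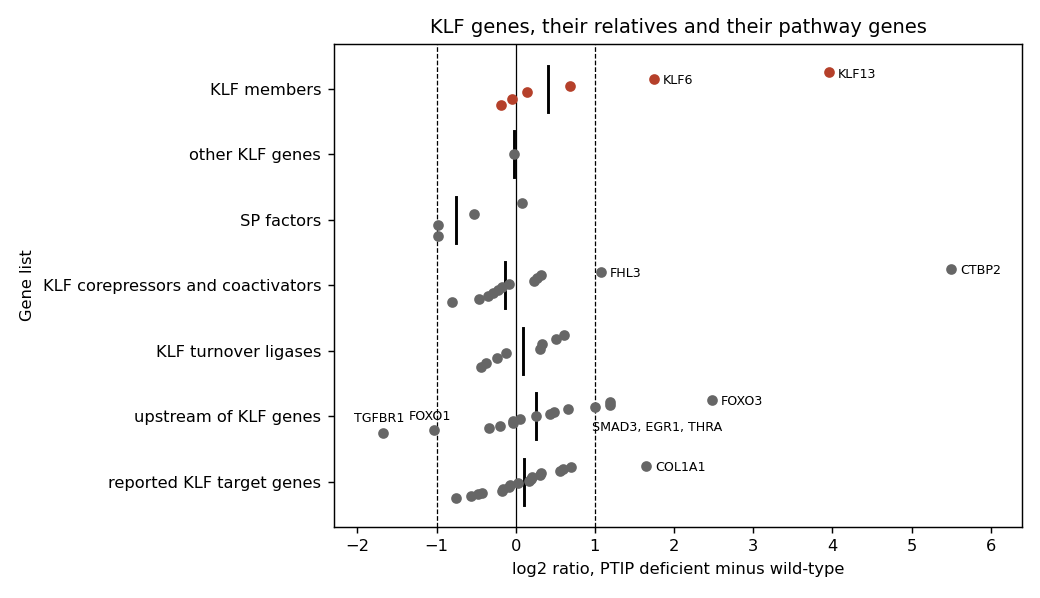
The log2 ratio (PTIP deficient minus wild-type) of each gene measured in both arrays in the family and in 6 lists of relatives and pathway genes, with the list median as a black bar, the 2-fold bars dashed and genes at or past them named. Named beyond the bars are KLF13 and KLF6 in the family, CTBP2 and FHL3 among the partners, FOXO3, SMAD3, EGR1, THRA, FOXO1 and TGFBR1 among the upstream genes and COL1A1 among the reported targets.

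Cell type markers differed in the same pair of arrays as KLF13 and KLF6. Of 13 B cell markers on the array, all 13 were measured in both, and 8 passed the bar downward and 0 upward, against 4.46% and 5.03% of all genes. The other 5 were within 2-fold, 1 of them above 0. That 1 was PAX5 (log2 ratio 0.33 with its brightest probe set), named after its values were seen and under the reporter level in both arrays. Another PAX5 probe set had the opposite sign, at 6.97 in PTIP deficient and 107 in wild-type cells. The other PAX5 probe sets stayed below the floor, at 8.07 and 10.2 in PTIP deficient cells against 23.3 and 0.75 in wild-type cells. The direction for PAX5 is therefore not settled. The summed B cell signal was 19989 in PTIP deficient and 80714 in wild-type cells. Most of that difference came from IGLL1 (3619 in PTIP deficient, 29961 in wild-type cells) and JCHAIN (68.5 in PTIP deficient, 11947 in wild-type cells). The joining chain gene JCHAIN was at least 90.8-fold lower and the co-receptor gene CD72 at least 22.4-fold lower by its brighter probe set and at least 7.45-fold by the other. The transcription factor gene IRF4 had a log2 ratio of -4.07 and the light chain gene IGLL1 one of -3.05 with its brightest probe set. Of 10 T cell markers, 6 were measured in both, and 2 passed the bar upward and 0 downward, against 5.03% and 4.46% of all genes. Of these 6, 4 lay above 0 and 2 below. The summed T cell signal was 17466 in PTIP deficient and 9533 in wild-type cells, most of it from CD3D (15919 in PTIP deficient, 8831 in wild-type cells). CD8A was at least 4.28-fold and CD5 at least 2.30-fold higher, and CD247 had a log2 ratio of 0.45. Of the remaining markers, named after their values were seen, CD3E had a log2 ratio of -0.03 and ZAP70 one of -0.24. GATA3 was measured in wild-type cells only, at 25.2 in PTIP deficient and 37.8 in wild-type cells, both under the reporter level. CD4, CD28 and LCK reached the floor in neither array. All 6 macrophage and granulocyte markers and all 4 erythroid and thrombocyte markers on the array were under the reporter level in both arrays. At those low signals the log2 ratio was 1.22 for CTSK, 0.74 for MARCO and 0.19 for CSF1R among the macrophage markers, and 0.88 for HBE and 0.40 for TAL1 among the erythroid ones. Their summed signals were 351 and 194 in PTIP deficient cells, against 223 and 168 in wild-type cells. Of 10 mesenchymal markers, 6 were under that level in both arrays, and the 6 with a ratio lay 3 above and 3 below 0, with a median of 0.02. COL1A1 was past 2-fold by its log2 ratio, whereas it was -0.80 for PDGFRA, -0.32 for FN1 and 0.09 for COL1A2. With all their probe sets averaged, FN1 was at 0.66 and COL1A2 at -0.26, so the direction is not settled for either gene. The proteoglycan gene LUM, chosen after its values were seen, was at least 7.75-fold higher. Its 1019 in PTIP deficient cells made up most of the summed list signal of 1652 there, against 554 in wild-type cells. COL5A1 was measured in wild-type cells only, at 20.8 in PTIP deficient and 37.8 in wild-type cells, both under the reporter level. Of 6 epithelial markers 5 were under the reporter level in both arrays, with summed signals of 339 in PTIP deficient and 406 in wild-type cells, and CLDN4 had a log2 ratio of -0.39. The part of these markers in the KLF13 and KLF6 differences was not tested. In such bulk samples, more cells of a type and more RNA per cell cannot be told apart.

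The genes beside KLF13 and KLF6 on the chromosome were chosen for display after the family's values were seen. Of the 10 protein-coding genes nearest to KLF13 in RefSeq order, 5 on each side, 6 were measured in both arrays. Of these 6, 0 were at least 2-fold apart, with log2 ratios from -0.60 (MTMR10) to 0.46 (MCEE). Most genes of the array were within 2-fold, 8295 of 9165, with 5.03% past the bar upward and 4.46% downward. Of the 10 nearest to KLF6, 8 were measured in both and 2 were at least 2-fold apart. CREM, a cyclic AMP responsive transcription factor gene at the fifth place to one side, had a signal of 2158 in PTIP deficient and 715 in wild-type cells (log2 ratio 1.59), a difference in the direction of that of KLF6 and close to it in size. WDR37, on the other side, read 262 in PTIP deficient and 699 in wild-type cells (log2 ratio -1.41). PITRM1 and FZD8, the direct neighbours of KLF6, had log2 ratios of 0.13 and -0.67. The median log2 ratio was 0.05 over the 259 measured genes of chromosome 10 and 0.01 over the 764 of chromosome 2. KLF6 lies on the same chromosome as the disrupted PAXIP1, with 29 annotated protein-coding genes between them. KLF5 and KLF12, with 0 between them, are direct neighbours on chromosome 1.

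**Figure D4:**
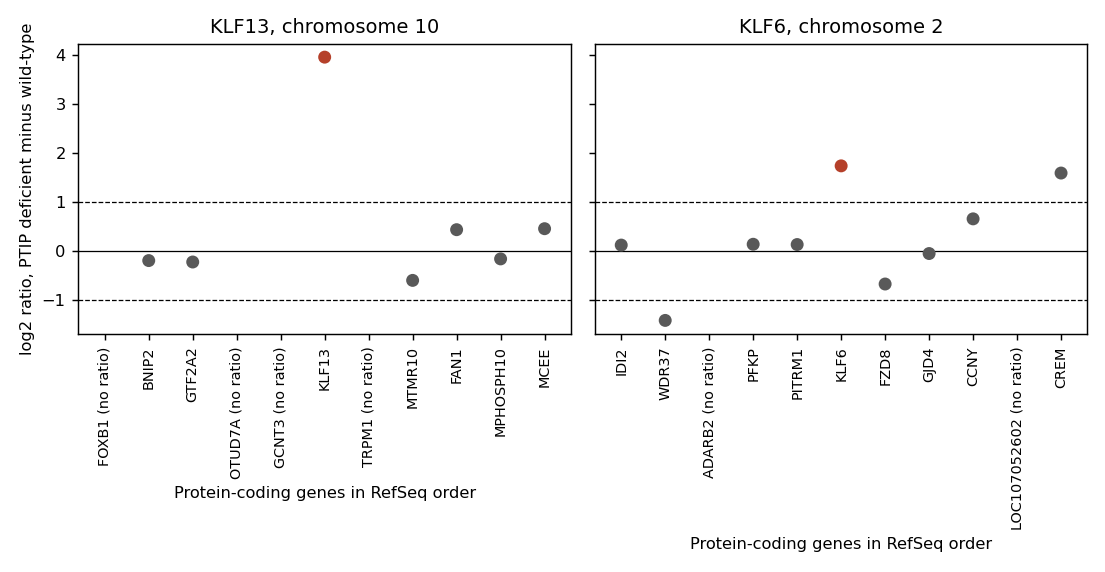
The log2 ratio (PTIP deficient minus wild-type) of KLF13 and KLF6 (red) and of the 5 protein-coding genes on each side in the order of the annotation, not to distance, with genes lacking a ratio marked. No neighbour of KLF13 passes the 2-fold bars (dashed), and CREM and WDR37 do beside KLF6.

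**Figure D5:**
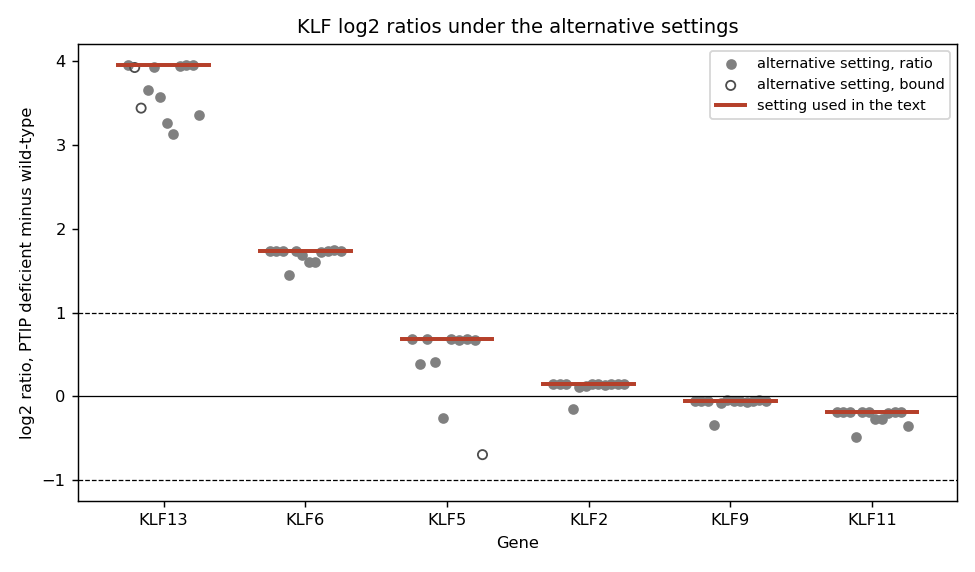
The log2 ratio (PTIP deficient minus wild-type) of the 6 KLF genes measured in both arrays with the setting used in the text (bars) and under the alternative scalings, floors and probe set choices (filled points; open points are bounds). KLF13 stays between 3.13 and 3.96 and KLF6 between 1.44 and 1.75, while KLF5 lies on both sides of 0.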

How the data were processed

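Total RNA was labelled with biotin and hybridised to 1-colour Affymetrix arrays, per the labels' protocols. The deposited values are linear intensity values, 1 per probe set and array, made by the authors with GCOS, per the submitters' processing notes. The GCOS version, its algorithm and the genome build behind the probes are not given in the sources read. Trimmed to percentiles 2 to 98, each array had a mean of 499.9 and so had been scaled to a common target, and a difference in RNA per cell cannot be seen.

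Python 3.11.15, pandas 2.3.3 and statsmodels 0.14.6 (loess) were used. The 96 control probe sets were left out. Gene symbols are those of the platform annotation (27178 probe sets with 1 symbol, 177 with several, 11180 with none), and all 10 members matched RefSeq by Entrez identifier. A gene was represented by its brightest probe set (mean log2 signal of both arrays). Members and the 13 gene lists were chosen with earlier results of these data known; 125 of 165 listed symbols matched. Named genes are the members, other KLF and SP genes, PAXIP1, the 4 largest absolute log2 ratios of each list and the 3 genes on each side of KLF13 in the order of ratios; others are said to be chosen after their values were seen. The code was tested on simulated data. The number of arrays limits the precision. The planned description of sequences was not made, since no sequences were used here.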

Additional observations from a re-analysis of the deposited data

How the results depend on the processing

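The 12 alternatives comprised 4 scalings, 4 floors, an added offset and 3 probe set choices; leaving out KLF13 was chosen after seeing the data. At the gene level KLF6 was at least 2-fold higher under all 12, at log2 ratios from 1.44 to 1.75, and KLF13 under all 12. Taken alone, the KLF6 probe set with a log2 ratio of 1.29 gave 0.996 with the spiked transcripts set equal, just under 2-fold. The KLF13 ratio was 3.44 as a bound with the floor at the highest reporter signal, 3.57 with the floor added to each signal, 3.26 when all its probe sets were averaged, 3.13 when the measured ones were and 3.36 without _s_at and _x_at probe sets. KLF5 was at -0.26 when all probe sets were averaged and at -0.70, a bound, without _s_at and _x_at ones. The count of members at least 2-fold higher was 1 of 4 with the floor at percentile 60 or at the highest reporter signal, where KLF13 became a bound, and 3 of 10 with no floor, where KLF4 entered from signals under 4. The count lower was 0 throughout. The family median of 0.41 was 0.047 with either higher floor and also when all probe sets were averaged, 0.15 without KLF13 and 0.12 with the spiked transcripts set equal, which moved the median of all genes to -0.26. KLF2, at -0.15 there, lay above that median. The share of all genes at least 2-fold higher ranged from 2.82% to 11.99%. No paired analysis was possible because each genotype has 1 array, and no array could be left out.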

Other observations

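Beside the other 8 KLF genes on the chromosome, 51 neighbours were measured in both arrays and 7 passed the 2-fold bar. Over all 9165 genes with a ratio, 5.03% passed it upward and 4.46% downward. The 7 neighbours were named after their values were seen. RAB8A, a small GTPase gene near KLF2, had a signal of 3046 in PTIP deficient and 9078 in wild-type cells (log2 ratio -1.58). Near KLF11, HPCAL1 read 4150 in PTIP deficient and 1684 in wild-type cells (log2 ratio 1.30), and GRHL1, a grainyhead-like transcription factor gene, was higher too, at 221 in PTIP deficient and 88.6 in wild-type cells, the second of them under the highest reporter signal. CHST13, a sulfotransferase gene near KLF15, read 122 in PTIP deficient and 394 in wild-type cells, the first of them under the highest reporter signal. TMEM2, near KLF9, read 297 in PTIP deficient and 612 in wild-type cells (log2 ratio -1.04). RELL1, near KLF3, read 81.1 in PTIP deficient and 165 in wild-type cells (log2 ratio -1.03), the first of them under the highest reporter signal. Against that level neither GRHL1 nor RELL1 was 2-fold apart. MDH1B, near KLF7, read 39.0 in PTIP deficient and 90.1 in wild-type cells (log2 ratio -1.21), both under that level. KLF2, KLF9 and KLF11 themselves were within 2-fold.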
